A study of Homo sapiens with 12 samples.

Results

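The 10 genes FOS, FOSB, FOSL2, JUN, JUNB, EGR1, NPAS4, ARC, NR4A1 and NR4A3 are immediate early genes of neuronal activity, and their RNA was followed here through 12 libraries of human neural cultures. They were taken by symbol from the 63925 Ensembl gene IDs of the count tables, and each symbol matched 1 ID. All 10 were among the 17819 genes that passed the filter on low counts, with 68 counts (FOSB) as the lowest value of any of them in any library.

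The cultures were grown from 2 established human embryonic stem cell lines, H9 and H1, by dual SMAD inhibition over 10 weeks, and were then given dexamethasone, a synthetic glucocorticoid, or its solvent DMSO. The 4 groups of 3 sister cultures were H9 with vehicle for 6 h, H9 with 1 µM dexamethasone for 6 h, H1 with vehicle for 6 h and H1 with 1 µM dexamethasone for 6 h. Polyadenylated RNA was sequenced, and levels are given as CPM, the counts of a gene scaled to library size. Every group, vehicle included, was kept in a neural medium with B-27, ascorbic acid, cyclic-AMP, BDNF and GDNF, and the stem cells had earlier grown on mouse embryonic fibroblast feeders. The labels name no stimulus to the neurons, no differentiation run and no genetic change. A difference between the lines cannot be told apart from one between differentiation runs, and p-values measure only the spread of sister cultures.

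Immediate early genes are transcribed within minutes of a stimulus from transcription factors that already sit in the cell, and their RNA is short-lived. In neurons, synaptic input and calcium entry act through calcium-dependent and MAP kinases on CREB, SRF with its ELK partners, and MEF2, which bind the promoters and enhancers of these genes. Most products are transcription factors that switch on a later wave of genes, and ARC acts at the synapse itself, so their RNA is widely used as a sign of recent neuronal activity. Growth factors, cyclic AMP and stress induce many of them in other cell types as well.

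The promoters show which control elements the genes have in common near the start of transcription. ARC was left out of the search beforehand. RefSeq (GRCh38.p14) gave a promoter for each of the other 9 genes, and the 250 bases before each start were read. The letters TGACG, which form part of the cyclic AMP response element bound by CREB, were found on either strand in 8 of the 9 genes, the exception being NR4A1. The same letters stood in 24.856% of 27305 genes with a promoter. Stretches of 90 bases are shown for 6 members whose shown part lies outside annotated exons and holds this element, each 5′ to 3′ in the sense of the gene ending 56 bases before the start, all on the + strand. Capitals mark TGACG or its reverse complement CGTCA, and in EGR1 also the CArG boxes bound by SRF. The stretches lie at chr14:75278683-75278772 for FOS, chr19:45467851-45467940 for FOSB, chr19:12791341-12791430 for JUNB, chr5:138465334-138465423 for EGR1, chr11:66420859-66420948 for NPAS4 and chr9:99821740-99821829 for NR4A3.
FOS: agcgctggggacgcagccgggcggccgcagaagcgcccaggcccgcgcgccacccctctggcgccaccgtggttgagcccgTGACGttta
FOSB: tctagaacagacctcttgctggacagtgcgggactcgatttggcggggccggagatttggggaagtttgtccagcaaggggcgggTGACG
JUNB: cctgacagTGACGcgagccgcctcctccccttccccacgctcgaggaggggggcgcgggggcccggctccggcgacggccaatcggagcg
EGR1: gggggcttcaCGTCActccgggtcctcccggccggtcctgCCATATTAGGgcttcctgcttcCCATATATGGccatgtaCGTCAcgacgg
NPAS4: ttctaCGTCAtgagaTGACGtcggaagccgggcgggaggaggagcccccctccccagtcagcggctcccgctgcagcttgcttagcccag
NR4A3: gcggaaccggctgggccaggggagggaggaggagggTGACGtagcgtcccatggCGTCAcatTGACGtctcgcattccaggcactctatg

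NR4A3 held 4 copies of the short element, NPAS4, EGR1 and FOSL2 held 2 each, and FOS, FOSB, JUN and JUNB 1 each. The full palindrome TGACGTCA, which contains both forms of the short one, was in none of the 9 genes and in 2.033% of all. A CArG box was found only in EGR1 among the 9, in 2 copies, against 1.443% of all genes. FOS, FOSB and JUNB carried TATAAA on the sense strand, which stood in 8.379% of all genes. The EGR site GCGNGGGCG was in 1 of the 9, EGR1 itself, and in 10.057% of all. The AP-1 site TGANTCA (8.057% of all), the NR4A site AAAGGTCA (1.285%) and the glucocorticoid element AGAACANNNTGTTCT (0.004%) were in none of the 9. These matches describe letters in a short window, and binding was not measured.

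Total counts ran from 14751168 to 27505804 per library. H9 vehicle culture 3 stood apart: it had the lowest total, and mitochondrial genes took 0.607% of it, where they took 4.80% to 5.64% of every other H9 library and 2.91% to 3.23% of those of H1. The vehicle differences of the members and their family genes, and the list counts with vehicle, are given with and without it. Neuron markers (12 genes) summed to between 3448 and 5560 CPM over the 12 libraries, stem cell markers (6 genes) to at most 5.39 CPM, and microglia markers (7 genes, none passing the filter, AIF1 at 0 throughout) to under 1 CPM. POU5F1 of the stem cell list was also at 0 throughout. A gene at 0 in every library cannot tell absent RNA from reads that the counting did not assign.

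All 10 immediate early genes were higher in H9 than in H1, with vehicle and with dexamethasone. NPAS4, ARC and FOSB differed most and JUN least. With vehicle, 10 of 10 passed edgeR's quasi-likelihood test (adjusted p under 0.05) in the direction of H9, against 25.7% of all tested genes higher and 21.2% lower in H9. With dexamethasone, again 10 of 10 passed, against 22.5% of all genes higher and 21.2% lower. The median log2 difference (H9 over H1) of the 10 was 1.95 with vehicle and 2.21 with dexamethasone, where that of all tested genes was 0.03 and -0.01. In each of the 10 genes every H9 library lay above every H1 library of the same treatment, as did 27.5% of all tested genes with vehicle and 33.7% with dexamethasone. The line comparisons of the 2 treatments use different libraries, and in both 10 of 10 passed without H9 vehicle culture 3. Without that culture, 30.1% of all tested genes were higher and 28.6% lower in H9 with vehicle, and 31.9% and 32.8% with dexamethasone. In bulk RNA, fewer cells of a type and less RNA per cell cannot be told apart.

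**Figure D1:**
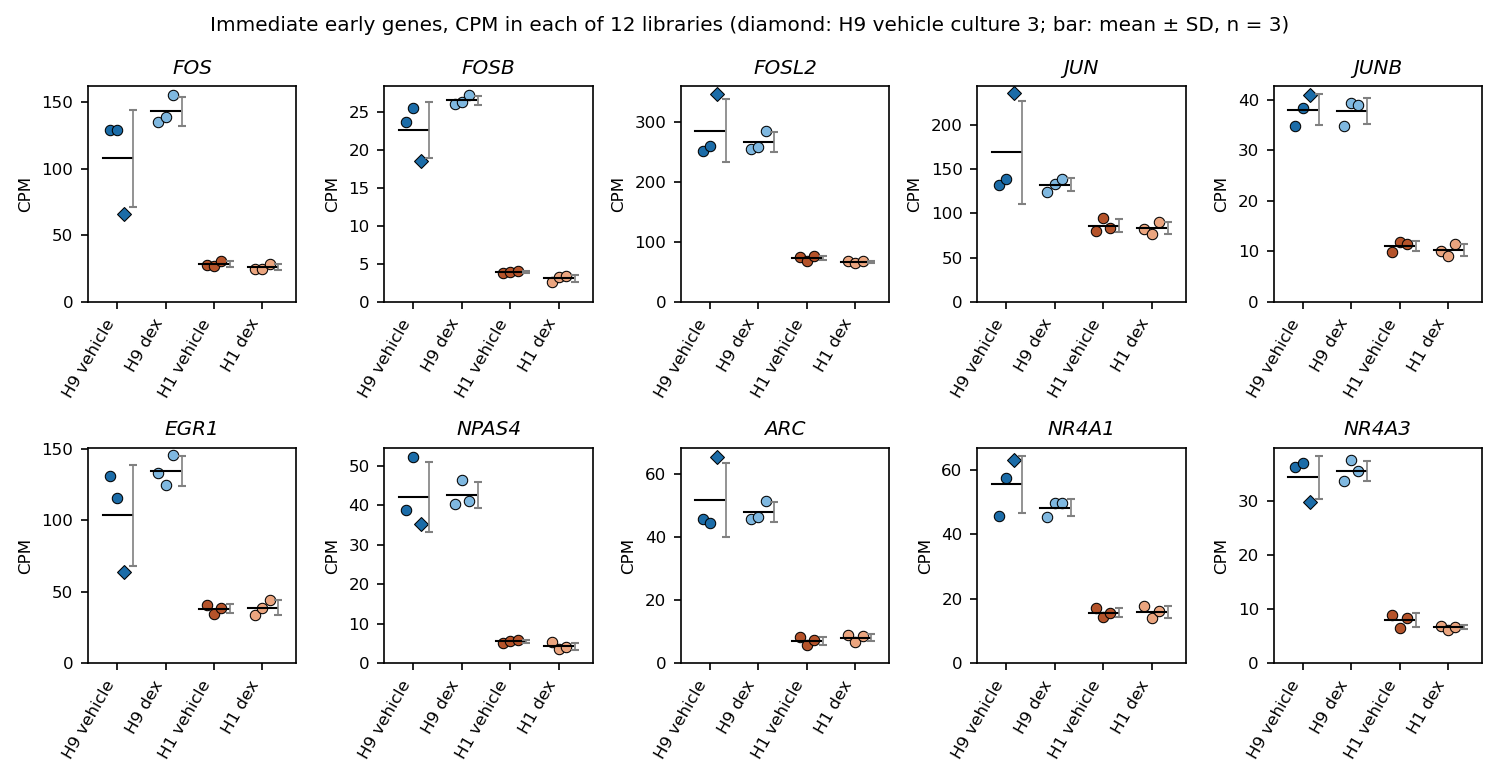
CPM of the 10 genes (1 panel each, linear axis from 0) in the 12 libraries, by group; each point is 1 library, the diamond is H9 vehicle culture 3, the line the mean and the bar the SD (n = 3). In every panel the 6 H9 points lie above the 6 H1 points, and the groups of 1 line lie close to each other.

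FOS, FOSB and FOSL2 encode the Fos-type subunits of the transcription factor AP-1, which pair with Jun proteins. FOS (chr14:75278774-75282230) was at 129.0, 128.9 and 65.7 CPM in H9 vehicle cultures 1 to 3 and at 134.9, 139.1 and 155.6 CPM with dexamethasone. In H1 it was at 27.6, 27.0 and 30.9 CPM with vehicle and at 24.5, 25.0 and 28.6 CPM with dexamethasone. The lowest H9 value, in H9 vehicle culture 3, was thus still above every H1 value. The log2 difference of FOS between lines was 1.92 ± 0.21 (SE) with vehicle, 2.18 ± 0.08 without H9 vehicle culture 3, and 2.46 ± 0.22 with dexamethasone (edgeR adjusted p = 2.2e-05, 1.19e-11 and 3.48e-06).

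FOSB (chr19:45467995-45475179) was the least abundant of the 10 in CPM, at 23.6, 25.5 and 18.5 in the H9 vehicle cultures and 26.0, 26.3 and 27.1 in the H9 dexamethasone cultures. Its H1 values were 3.82, 3.97 and 4.005 CPM with vehicle and 2.63, 3.22 and 3.40 CPM with dexamethasone. The lines did not overlap, and the difference was 2.52 ± 0.14 with vehicle and 3.10 ± 0.15 with dexamethasone (log2, edgeR adjusted p = 1.57e-07 and 4.33e-08). The FOSB difference with vehicle was 2.64 ± 0.11 when H9 vehicle culture 3 was left out. FOSB lies on the opposite strand within the span of ERCC1, a DNA repair gene with 19553 counts over the libraries against 3855 for FOSB. The strand setting of the counting is not given in the sources used here, so reads of the 2 genes cannot be told apart with certainty.

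FOSL2, also called FRA2 (chr2:28392448-28417312), had the highest CPM of the 10 genes in H9. It was at 252, 260 and 346 CPM in the H9 vehicle cultures and at 254, 259 and 285 CPM with dexamethasone. The H1 libraries held 74.8, 68.6 and 75.97 CPM with vehicle and 67.6, 64.4 and 67.5 CPM with dexamethasone. Here H9 vehicle culture 3 was the highest library and not the lowest. The difference between lines was 1.97 ± 0.12 with vehicle, 1.81 ± 0.07 without that culture and 2.00 ± 0.12 with dexamethasone (log2, edgeR adjusted p = 3.4e-07, 8.68e-12 and 2.66e-07).

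JUN and JUNB encode Jun-type subunits, which form AP-1 with Fos proteins or, in the case of JUN, readily with each other. JUN (chr1:58780788-58784327) was at 132, 139 and 236 CPM in the H9 vehicle cultures and 124, 133 and 139 CPM in the H9 dexamethasone cultures. In H1 it reached 80.5, 95 and 82.9 CPM with vehicle and 82.8, 76.8 and 89.8 CPM with dexamethasone. Its lines came closest of the 10 genes, although no H9 value fell to the H1 range. The JUN difference was 0.97 ± 0.19 with vehicle and 0.67 ± 0.19 with dexamethasone (log2, edgeR adjusted p = 0.00131 and 0.0123). Without H9 vehicle culture 3 the vehicle difference of JUN was 0.65 ± 0.08 (edgeR adjusted p = 5.07e-06).

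JUNB (chr19:12791496-12793315) varied little among sister cultures, with 34.8, 38.2 and 40.9 CPM in H9 vehicle and 34.8, 39.3 and 39.0 CPM in H9 dexamethasone. The H1 cultures were at 9.96, 11.8 and 11.5 CPM with vehicle and 10.1, 9.12 and 11.5 CPM with dexamethasone. The differences of JUNB between lines, 1.78 ± 0.12 with vehicle and 1.88 ± 0.12 with dexamethasone on the log2 scale, both passed (edgeR adjusted p = 6e-07 and 3.5e-07), and that with vehicle was 1.72 ± 0.11 without H9 vehicle culture 3. JUNB lies within the span of HOOK2 on the opposite strand, which had 4511 counts against 6644 for JUNB.

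EGR1, a zinc finger transcription factor also called ZIF268 that binds GC-rich sites (chr5:138465490-138469315), was at 131, 116 and 63.7 CPM in the H9 vehicle cultures. With dexamethasone H9 held 133, 125 and 145.3 CPM. The H1 values were 40.7, 34.6 and 39.0 CPM with vehicle and 33.6, 39.0 and 44.6 CPM with dexamethasone. As for FOS, H9 vehicle culture 3 was the low library of its line and remained above all H1 libraries. The difference of EGR1 was 1.44 ± 0.22 with vehicle and 1.70 ± 0.10 without that culture, and 1.78 ± 0.22 with dexamethasone (log2, edgeR adjusted p = 0.000217, 1.79e-09 and 4.54e-05).

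NPAS4, a basic helix-loop-helix PAS factor that pairs with ARNT proteins and is induced by calcium entry in neurons (chr11:66421004-66426707), showed the largest difference of the 10. The H9 vehicle cultures held 38.8, 52.2 and 35.2 CPM and the H9 dexamethasone cultures 40.4, 46.5 and 41.0 CPM. In H1 the values were 5.21, 5.66 and 5.89 CPM with vehicle and 5.33, 3.67 and 4.10 CPM with dexamethasone. The means of H9 and H1 were thus 7.53-fold apart with vehicle and 9.76-fold apart with dexamethasone. On the log2 scale the NPAS4 differences were 2.91 ± 0.17 and 3.28 ± 0.18 (edgeR adjusted p = 2.2e-07 and 9.89e-08), and with vehicle 3.02 ± 0.14 without H9 vehicle culture 3.

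ARC (chr8:142611044-142614472) is the one member that encodes no transcription factor: its protein acts at synapses, where it promotes the removal of AMPA receptors from the surface. It was at 45.6, 44.5 and 65.4 CPM in the H9 vehicle cultures and 45.7, 46.4 and 51.5 CPM in the H9 dexamethasone cultures. The H1 libraries held 8.27, 5.73 and 7.53 CPM with vehicle and 8.92, 6.81 and 8.75 CPM with dexamethasone. The lines did not overlap, at 2.85 ± 0.19 with vehicle, 2.65 ± 0.13 without H9 vehicle culture 3, and 2.55 ± 0.18 with dexamethasone (log2, edgeR adjusted p = 4.59e-07, 1.47e-10 and 9.01e-07).

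NR4A1 and NR4A3, also called NUR77 and NOR1, are orphan nuclear receptors that act as transcription factors without a known classical ligand. NR4A1 (chr12:52022832-52059507) was at 45.7, 57.6 and 63.2 CPM in the H9 vehicle cultures and 45.4, 49.7 and 49.9 CPM with dexamethasone. In H1 it was at 17.1, 14.3 and 15.5 CPM with vehicle and 17.8, 14.1 and 16.3 CPM with dexamethasone. All 6 H9 libraries lay above all 6 H1 libraries, by 1.83 ± 0.14 with vehicle and 1.59 ± 0.14 with dexamethasone (log2, edgeR adjusted p = 1.22e-06 and 2.9e-06), and by 1.72 ± 0.11 with vehicle when H9 vehicle culture 3 was left out. Among the members searched, which leave out ARC, NR4A1 was the only gene without TGACG in the promoter window.

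NR4A3 (chr9:99821855-99866891) held 36.2, 36.9 and 29.8 CPM in the H9 vehicle cultures and 33.7, 37.5 and 35.4 CPM in the H9 dexamethasone cultures. Its H1 levels were 8.95, 6.50 and 8.37 CPM with vehicle and 6.95, 6.23 and 6.80 CPM with dexamethasone. No H9 value came near those of H1, and the difference was 2.11 ± 0.14 and 2.41 ± 0.14 with vehicle and dexamethasone (log2, edgeR adjusted p = 3.98e-07 and 1.5e-07). It was 2.21 ± 0.11 with vehicle without H9 vehicle culture 3.

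**Figure D2:**
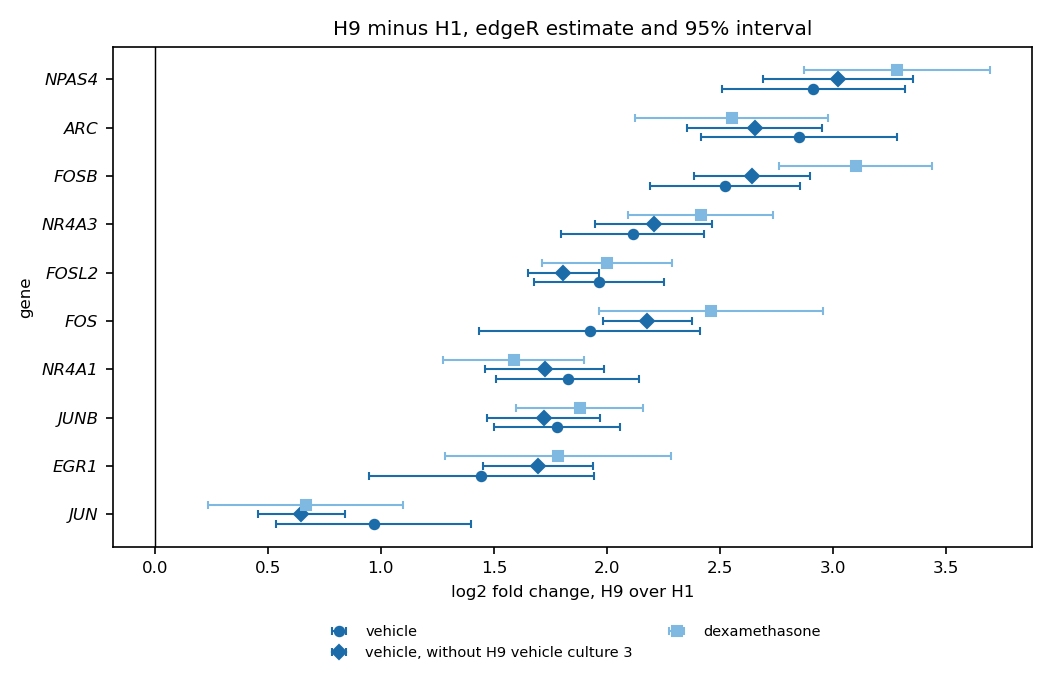
Log2 fold change of H9 over H1 for each gene (edgeR estimate, bar: 95% interval) with vehicle (circle), with vehicle but without H9 vehicle culture 3 (diamond), and with dexamethasone (square). All 30 intervals lie above 0, JUN lowest and NPAS4 highest in each series.

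The libraries of 1 line did not differ from one another in the same way for all genes. H9 vehicle culture 3 lay outside the range of the other 5 H9 libraries for all 10 members, 5 above and 5 below. JUN stood at 1.77 times the mean of the other 5, ARC at 1.40, FOSL2 at 1.32, NR4A1 at 1.27 and JUNB at 1.10. Conversely FOS was at 0.478 of that mean, EGR1 at 0.490, FOSB at 0.720, NPAS4 at 0.805 and NR4A3 at 0.829. This culture lay above the other 5 H9 libraries for 41.3% of all tested genes and below for 40.2%, so leaving the range was common among genes. The sum of the neuron markers was also lowest in this culture among H9 libraries, at 3715 CPM, but the markers did not all go down. RBFOX3 was at 74.3 CPM against 24.6 to 32.0 in the other 5, SLC17A7 at 3.27 against 1.42 to 2.32 and TUBB3 at 0.884 against 0.247 to 0.689. TUBB3 had only 125 counts over all libraries, so its value lies near the floor and carries little weight. The remaining neuron markers lay below the range of the other 5. Among neural progenitor markers NES, an intermediate filament, was at 5545 CPM in it and at 881 to 1094 CPM in the other 5 H9 libraries. The others did not go with NES. VIM was at 2102 CPM against 3155 to 3561, PAX6 at 129 against 149.9 to 181, HES1 at 19.4 against 28.4 to 32.2 and HOPX at 15.6 against 32.7 to 65.4. EOMES lay within the range of the other 5, and SOX2 and HES5 had no count in any library. That lack of counts cannot show absent RNA, since the strand setting and the handling of multiply mapped reads are not given. The part of these markers in the result was not tested.

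**Figure D3:**
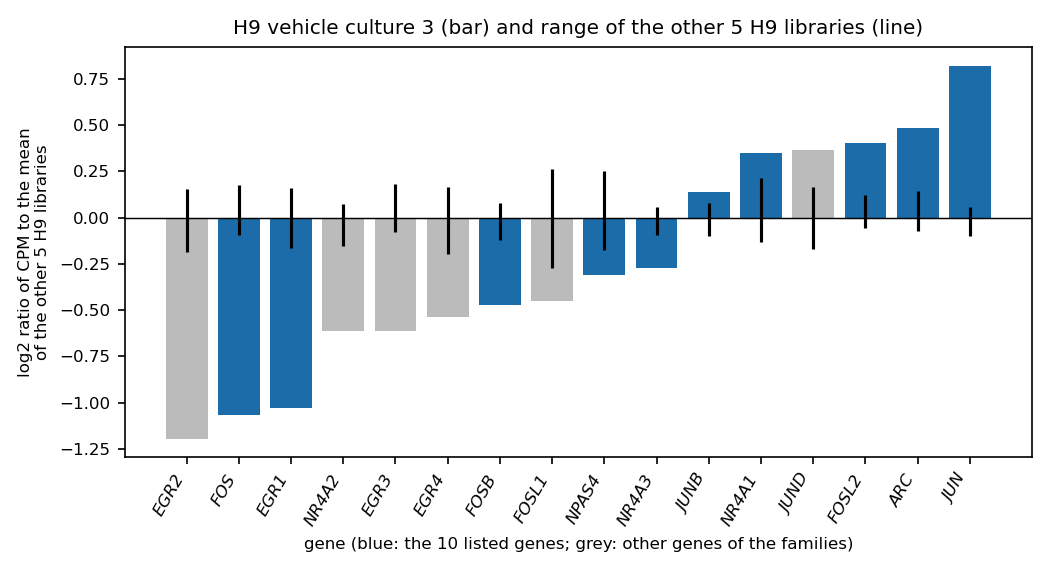
Log2 ratio of CPM in H9 vehicle culture 3 to the mean of the other 5 H9 libraries (bar), with the range of those 5 (line), for the 10 genes (blue) and 6 further genes of their families (grey). EGR2, FOS and EGR1 lie lowest and JUN highest, and each bar ends outside the range of its line.

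The spread between sister cultures was widest in the H9 vehicle group. The coefficient of variation of the 10 members (SD over mean) had a median of 19.8% there (n = 3) and 4.48% without culture 3 (n = 2). In the other groups the median was 6.47% with dexamethasone in H9, 8.51% with vehicle in H1 and 11.8% with dexamethasone in H1. In some groups the same culture ranked lowest or highest for most members. H9 dexamethasone culture 1 was the lowest of its group for 9 of the 10 genes and culture 3 the highest for 7. H1 dexamethasone culture 2 was the lowest for 7. In H1 vehicle, cultures 1 to 3 were the highest for 4, 2 and 4 genes. Such ranks were not counted over all tested genes, so they cannot be read as particular to the members.

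The FOS, JUN, EGR and NR4A families hold 6 more genes, and these too were higher in H9 in both comparisons. EGR4 differed most, from a mean of 6.56 CPM in H9 vehicle to between 0.115 and 0.297 CPM in the H1 vehicle cultures, with 3 counts in its lowest library. Its log2 difference was 4.82 ± 0.33 with vehicle and 4.31 ± 0.30 with dexamethasone (edgeR adjusted p = 6.44e-07 and 7.26e-07). EGR3 followed with 2.82 ± 0.22 and 2.69 ± 0.21, and EGR2 with 1.73 ± 0.29 and 2.35 ± 0.29. The differences of JUND, a Jun gene expressed more steadily than its relatives in many cells, were 1.13 ± 0.15 and 0.96 ± 0.15. FOSL1 (also FRA1) stood at 1.05 ± 0.21 and 1.20 ± 0.21, and NR4A2 (also NURR1) at 0.92 ± 0.16 and 1.15 ± 0.16, all 6 genes passing in edgeR in both treatments. Without H9 vehicle culture 3 all 6 passed with vehicle, at 4.96 ± 0.28 for EGR4, 2.98 ± 0.17 for EGR3, 1.98 ± 0.20 for EGR2, 1.18 ± 0.19 for FOSL1, 1.08 ± 0.11 for NR4A2 and 0.99 ± 0.11 for JUND.

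Per length of merged exons (counts per kilobase, scaled to a fixed total per library), the families differed in make-up between the lines. The per-length total of the FOS family was 3.66 times as high in H9 as in H1 with vehicle and 4.03 times with dexamethasone, that of the EGR family 2.88 and 3.31 times, that of the NR4A family 3.00 and 2.76 times and that of the JUN family 2.19 and 1.72 times. The totals with vehicle but without H9 vehicle culture 3 were 3.54 (FOS), 3.25 (EGR), 2.84 (NR4A) and 1.77 (JUN) times as high. Within the FOS family, FOSB made up 4.46% to 5.47% over the 6 libraries of H9 and 2.52% to 3.53% over those of H1. FOSL1 made up less in H9, at 3.61% to 5.09% against 6.98% to 9.70%. FOS and FOSL2 were the main genes of the family by per-length level in every library. In H9 vehicle culture 3 FOS took 27.1% of it and FOSL2 64.7%, against 47.3% to 49.4% and 40.9% to 43.1% in the other H9 libraries.

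JUND made up most of the JUN family by per-length level in both lines, 58.5% to 64.2% in H9 and 61.0% to 64.4% in H1. JUNB had a larger share in H9, at 10.5% to 13.9% against 6.82% to 8.27%. EGR1 was the bulk of the EGR family, with 81.6% to 85.7% in H9 and 92.3% to 94.4% in H1. EGR3 (5.19% to 6.98% against 2.09% to 4.25%) and EGR4 (5.57% to 8.73% against 0.412% to 1.51%) took the larger share in H9. In the NR4A family the lines differed by NR4A3, at 28.8% to 35.6% of the per-length level in H9 and 19.1% to 24.9% in H1. NR4A2 went the other way, at 18.2% to 27.9% in H9 and 35.1% to 43.6% in H1. The shares of JUND, EGR2 and NR4A1 overlapped between the lines with and without H9 vehicle culture 3. Those of FOS, FOSL2 and JUN overlapped only through that culture. In the other 5 H9 libraries FOS took 47.3% to 49.4% of its family against 40.2% to 42.9% in H1, FOSL2 40.9% to 43.1% against 45.8% to 50.3%, and JUN 23.1% to 26.1% against 28.4% to 31.1%. These shares are descriptions, with no test.

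**Figure D4:**
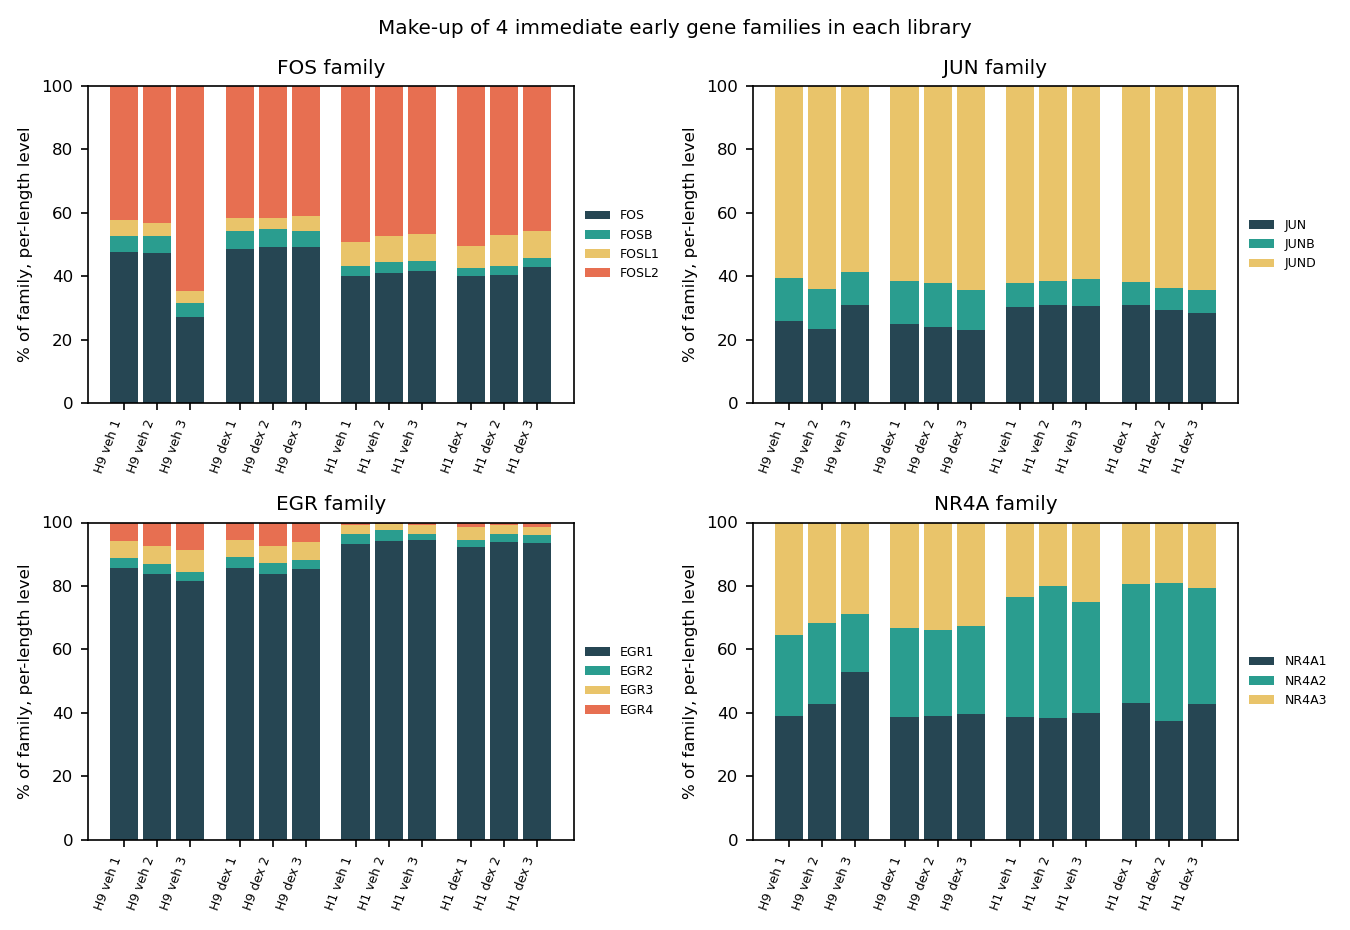
Share of each gene in the summed per-length level of its family (percent, stacked to 100) in each of the 12 libraries, 1 panel per family. FOSL2 fills more of the FOS family in H9 vehicle culture 3 than elsewhere, and the EGR3, EGR4 and NR4A3 bands are wider in H9 than in H1.

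Other genes of the activity response were read from lists chosen with earlier results of these data known. Of 25 tested further rapid response genes, 17 were higher in H9 and 4 lower with vehicle, with a median log2 difference of 0.64, and 18 were higher and 2 lower with dexamethasone. These counts and those of the further lists are read against the shares of all tested genes, 25.7% higher and 21.2% lower with vehicle and 22.5% and 21.2% with dexamethasone. GEM, a small GTPase, was higher by 2.15 ± 0.19, and MAFF, a small Maf factor, by 1.40 ± 0.12 with vehicle. SIK1, a salt-inducible kinase, went against the members, at -1.99 ± 0.40, from a mean of 0.634 CPM in H9 and 2.69 CPM in H1. Its reads can be split with the near-identical copy SIK1B in this build, so its value is uncertain. With dexamethasone the genes that differed most were GEM (2.76 ± 0.20), the RNA-decay factor ZFP36 (1.80 ± 0.32) and the transcription factor KLF4 (1.77 ± 0.23).

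Of 24 tested delayed activity-regulated genes, 14 were higher in H9 and 2 lower with vehicle (median 1.06), and 15 and 1 with dexamethasone (edgeR, adjusted p under 0.05). VGF, the precursor of secreted neuropeptides, was higher by 2.47 ± 0.25 and BDNF, the neurotrophin, by 1.76 ± 0.17 with vehicle. VGF was at 1109, 1476 and 2518 CPM in H9 vehicle cultures 1 to 3, against a mean of 306.5 CPM in H1 vehicle. NEUROD2, a neuronal transcription factor, was lower by -2.79 ± 0.45. With dexamethasone BDNF differed by 1.98 ± 0.18, the growth factor IGF1 by 2.01 ± 0.30 and NEUROD2 by -2.36 ± 0.42. Without H9 vehicle culture 3 the vehicle counts were 19 higher and 4 lower for the rapid list and 16 and 4 for the delayed list, where 30.1% of all tested genes were higher and 28.6% lower.

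Genes that act upstream of the members were split in direction. Of 17 CREB, SRF and MEF2 factors and cofactors, 4 were higher in H9 and 4 lower with vehicle (median -0.04), and 3 and 4 with dexamethasone, near the shares of all genes. MRTFA, an SRF coactivator, was at 95.5, 109 and 212 CPM in H9 vehicle cultures 1 to 3, against a mean of 87.1 CPM in H1 vehicle. Its difference with vehicle, 0.67 ± 0.23, was 0.23 ± 0.07 without culture 3, and with dexamethasone it was 0.13 ± 0.23 and did not pass (edgeR adjusted p = 0.690). CREB1 (-0.59 ± 0.10) and the SRF partner ELK4 (-0.52 ± 0.11) were lower with vehicle. With dexamethasone the coactivators CRTC1 (-0.54 ± 0.14), EP300 (-0.47 ± 0.08) and CREBBP (-0.42 ± 0.11) were lower. RNA levels of these factors say nothing of their phosphorylation, by which much of their activity is set.

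Kinases and calcium entry genes were higher for 12 and lower for 2 of 23 with vehicle (edgeR, median log2 difference 0.38) and for 9 and 2 with dexamethasone. GRIN2A, an NMDA receptor subunit, differed by 2.81 ± 0.13, NTRK2, the receptor of BDNF, by 1.77 ± 0.18 and CAMK2B, a calcium-calmodulin kinase subunit, by 1.59 ± 0.24 with vehicle. CAMK2B was at 127.7, 150.8 and 289.9 CPM in H9 vehicle cultures 1 to 3 against a mean of 62.97 CPM in H1 vehicle. Its means with dexamethasone were 132 CPM in H9 and 69.55 CPM in H1. Feedback inhibitors of MAP kinase signalling were higher for 5 and lower for 1 of 11 with vehicle, and for 4 and 0 with dexamethasone. Those higher with vehicle include the phosphatases DUSP2 (1.49 ± 0.43), DUSP5 (1.43 ± 0.22) and DUSP4 (0.77 ± 0.10). Dimer partners and corepressors of the members were higher for 9 and lower for 1 of 16 with vehicle, and for 5 and 1 with dexamethasone. ATF3 (1.34 ± 0.11) and MAFG (1.27 ± 0.25) were higher with vehicle. MAFG was at 46.2, 41.8 and 97.8 CPM in H9 vehicle cultures 1 to 3 against a mean of 25.6 CPM in H1 vehicle, and its difference was 0.78 ± 0.09 without culture 3. Of 14 listed heat shock and stress genes, 2 had no count in any library and could not be read. The 12 tested were higher for 2 and lower for 1 with vehicle, GADD45A (1.13 ± 0.09) and DDIT3 (0.78 ± 0.10) higher and ATF4 (-0.37 ± 0.10) lower. With dexamethasone they were higher for 6 and lower for 1. The vehicle counts without H9 vehicle culture 3 were 5 and 6 for the upstream factors, 15 and 2 for the kinases, 7 and 1 for the feedback inhibitors, 8 and 3 for the dimer partners and 6 and 1 for the stress genes, against 30.1% and 28.6% of all genes.

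Several lists of cell type markers differed between the lines as well. Their counts are read against all tested genes, 25.7% higher and 21.2% lower with vehicle and 22.5% and 21.2% with dexamethasone. Without H9 vehicle culture 3 these shares were 30.1% and 28.6% with vehicle. Neuron markers summed to 3715 to 5144 CPM in H9 vehicle and 3562 to 3613 CPM in H1 vehicle, and 5 of 12 were higher and 2 lower in H9 (7 and 2 without H9 vehicle culture 3). Astrocyte markers summed to 1552 to 2560 CPM over the cultures of H9 and 866 to 1063 CPM over those of H1, 5 of 9 being higher with vehicle and none lower (6 and none without that culture). Of these markers SPARCL1 differed most in CPM, with vehicle means of 893.5 in H9 and 223.3 in H1. GFAP, S100B, SLC1A2 and GJA1 had lower means in H9 than in H1 with vehicle, and higher means in H9 with dexamethasone. Dividing-cell markers went the other way, 122 to 191 CPM in H9 and 654 to 732 CPM in H1, with 9 of 9 lower in H9. Mesenchymal markers summed to 411 to 492 CPM in H9 and 1647 to 3517 CPM in H1, with 1 of 9 higher and 5 lower in H9 with vehicle. Choroid plexus and ependyma markers summed to 44.6 to 164.5 CPM in H9 and 22.9 to 39.9 CPM in H1, 4 of 5 being higher and none lower with vehicle and 2 and none with dexamethasone. Oligodendrocyte lineage markers, at 46.9 to 131.7 CPM in H9 and 83.3 to 96.9 CPM in H1, overlapped, with 2 of 5 higher and none lower with vehicle (3 and none without that culture). Neural progenitor markers overlapped too, at 4269 to 7814 CPM in H9 and 3980 to 4736 CPM in H1. Of these, 1 of 6 was higher and 1 lower in each treatment. With dexamethasone, 4 neuron markers were higher and 1 lower, 6 astrocyte markers higher and none lower, and 1 mesenchymal marker higher and 4 lower. The summed level of the 10 members was 869 to 969 CPM in H9 and 248 to 282 CPM in H1. The part of cell composition in the members' difference was not tested.

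Genes with a profile most like that of the members were found by the root mean square distance, over the 12 libraries, of the centred log2 CPM of a gene from the mean centred log2 CPM of the 10 members. The 8 nearest of the tested genes were LRATD1 (distance 0.089), LINC00623 (0.129), MMP1 (0.138), SLC6A17 (0.142), DGKB (0.147), MRAP2 (0.1498), PPP2R2C (0.151) and GDPD2 (0.151). LRATD1 was at means of 43.8 and 45.98 CPM in H9 vehicle and dexamethasone and 11.0 and 10.8 CPM in H1. The members themselves ranged from 0.138 (NR4A3) and 0.146 (FOSL2) to 0.527 (NPAS4) and 0.693 (JUN) from their own mean. The 12 points are 2 blocks of 6 libraries of 1 line, and the likeness rests mainly on that step.

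None of the 10 genes passed edgeR's test for a change with dexamethasone in either line. In H9, 0 of 10 passed, against 0.0673% of all tested genes, and in H1 0 of 10, against 0.0505%. Averaged over the lines 0 of 10 passed (0.101% of all genes), and for the difference of the 2 responses 0 of 10 (0% of all genes). DESeq2 and limma-voom also called 0 of 10 in each of these comparisons. At an unadjusted p under 0.05 edgeR had 0 of 10 in H9, 1 in H1 (FOSB), 0 for the mean and 1 for the difference (FOSB). Of the 17819 tested genes, 2898 had such a p in H9, 526 in H1, 1335 for the mean and 1329 for the difference. Without H9 vehicle culture 3 the members with an unadjusted p under 0.05 were 0 in H9, 4 in H1 (FOSB, FOSL2, NPAS4 and NR4A3, all lower), 1 for the mean (NPAS4) and 3 for the difference (FOS, FOSB and FOSL2). Of the 18098 genes tested then, 2010, 1817, 1961 and 1880 had such a p. FKBP5, a chaperone cofactor induced by glucocorticoids, rose in the same fit by 2.68 ± 0.15 in H9 and 2.01 ± 0.15 in H1 (log2, edgeR adjusted p = 1.24e-05 and 0.00021). Of the 15 glucocorticoid receptor targets listed, 5 rose in H9 and 4 in H1, and 10 and 9 without H9 vehicle culture 3, where 0.293% of all genes passed in H9 and 0.326% in H1.

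In H9 the log2 change of the members with dexamethasone ran from -0.35 (JUN) to 0.41 (FOS), with 5 above and 5 below 0, a median of 0.00 and adjusted p of 0.318 at the lowest (edgeR). FOS was at 0.41 ± 0.20, with a 95% interval from -0.06 to 0.88. EGR1 was at 0.38 ± 0.21 (-0.11 to 0.86) and JUN at -0.35 ± 0.19 (-0.78 to 0.08). These are the 3 genes for which H9 vehicle culture 3 lay farthest from the other H9 libraries. Without it the changes were 0.15 ± 0.08 for FOS (interval -0.04 to 0.34), 0.12 ± 0.10 for EGR1 (-0.12 to 0.36) and -0.03 ± 0.08 for JUN (-0.22 to 0.16). All 10 changes in H9 then fell between -0.10 (NR4A1) and 0.15 (FOS), with intervals reaching from -0.39 to 0.36. The H9 groups did not overlap for FOS and FOSB, higher with dexamethasone (2 of 10, against 9.76% of all genes), and none of the 10 was lower without overlap (11.6% of all genes). Without culture 3, ARC also lay higher with no overlap, as did 12.6% of all genes.

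In H1 the changes ran from -0.35 (NPAS4 and FOSB) to 0.19 (ARC), with 7 of 10 below 0, a median of -0.12 and adjusted p = 1 for every gene (edgeR). The median of all tested genes was 0.00. NPAS4 was at -0.35 ± 0.18 (95% interval -0.76 to 0.06), FOSB at -0.35 ± 0.15 (-0.70 to -0.01), and NR4A3 at -0.25 ± 0.14 (-0.57 to 0.07). ARC was at 0.19 ± 0.19 (-0.24 to 0.61). FOSB and FOSL2 were lower with dexamethasone in all 3 cultures than in any vehicle culture of H1 (2 of 10, against 6.98% of all genes), and none of the 10 was higher without overlap (7.15% of all genes). The unadjusted p of FOSB in H1 was 0.037 in edgeR's test. Across the 10 genes the intervals reach from -0.76 (NPAS4) to 0.61 (ARC). With 3 cultures a group, a change within a gene's own interval is not excluded.

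**Figure D5:**
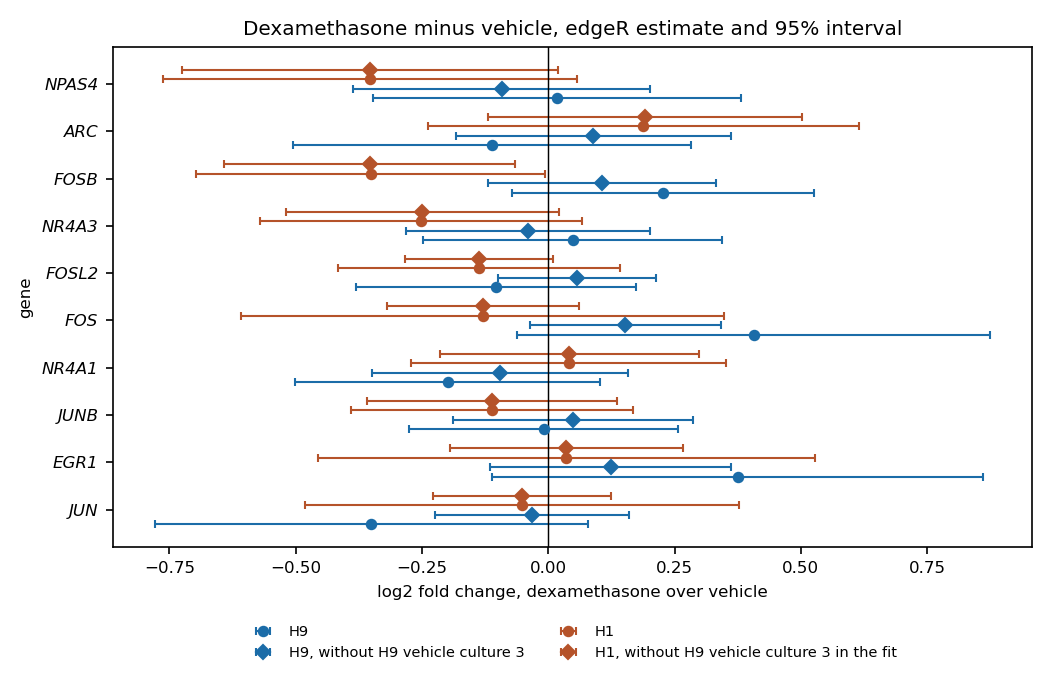
Log2 fold change of dexamethasone over vehicle for each gene (edgeR estimate, bar: 95% interval) in H9 (blue) and H1 (red), in the fit of all 12 libraries (circle) and without H9 vehicle culture 3 (diamond). All but the FOSB intervals in H1 include 0, and the H9 values of FOS, EGR1 and JUN move toward 0 without that culture.

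Among the further rapid response genes, PER1, a circadian clock repressor and itself a glucocorticoid receptor target, was the 1 gene of 25 tested that passed with dexamethasone. It rose by 0.99 ± 0.13 in H9 and by 1.14 ± 0.13 in H1 (log2, edgeR adjusted p = 0.0158 and 0.0096). Without H9 vehicle culture 3, 2 of 25 passed in H9 and 1 in H1. None of the 6 other family genes and none of the 24 delayed genes passed in either line, with or without that culture.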

How the data were processed

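RNA of 12 neural cultures was counted in 4 groups of 3, grouped by the labels of line and condition. The deposited files hold raw read counts per gene, made with STAR 2.5.3a and HTSeq, per the submitters' processing notes, which name hg38 and GRCh38.p10. Whether counting used the strand, and how multiply mapped reads were treated, is not given in the sources used here. Symbols came from a gene name table (57532 of 63925 IDs) and GENCODE 29 (552 more), and gene positions are from GENCODE 29 on GRCh38, 1-based. Promoter sequences are RefSeq's on GRCh38.p14.

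Genes were filtered with filterByExpr (17819 left), scaled by TMM and tested with edgeR 4.0.16 (quasi-likelihood F-test, 1 mean per group, all 12 libraries, Benjamini-Hochberg over all tested genes, threshold 0.05). CPM uses the TMM-scaled library size. A standard error was obtained by dividing the log2 fold change by the root of its F statistic, and 95% intervals use 8 residual degrees of freedom (7 without H9 vehicle culture 3), fewer than the moderated test, so the 2 can differ at the edge. Log2 CPM for likeness used a prior count of 2.

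The fit was repeated leaving out each library, with a culture number term, with robust dispersions, on the contrast's groups alone, with library sizes lacking mitochondrial and the 20 most abundant genes, with no filter or one of CPM 1 or more in 3 or more libraries, with RLE scaling, in DESeq2 1.42.0, and in limma 3.58.1 (voom). The members, lists and alternatives were chosen with earlier results of these data known. Named by rule were the members, their family genes, up to 3 passing genes per list with the largest change and mean CPM of at least 1, and the 8 nearest profiles. Other genes named, such as FKBP5, were chosen with their values known. Software was R 4.3.3, Python 3.11.15 and, for the figures, matplotlib 3.10.9.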

Additional observations from a re-analysis of the deposited data

Results flagged for a closer look

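The dexamethasone effect on FOSB differed between the lines at an unadjusted p under 0.05, in a test of the difference itself. It was at 0.23 ± 0.13 in H9 and at -0.35 ± 0.15 in H1 on the log2 scale, a difference of 0.58 ± 0.20 (95% interval 0.12 to 1.04, unadjusted p = 0.0129 in edgeR's test). All 3 dexamethasone cultures lay above the 3 vehicle cultures in H9 and below them in H1. FOSB was picked from the members by this very order, so the order and the unadjusted p are no independent support. How many of all tested genes show such an order was not counted. The difference did not pass after adjustment over all genes (edgeR adjusted p = 0.548), and it was 0.46 ± 0.15 without H9 vehicle culture 3 (adjusted p = 0.399). FOSB overlaps ERCC1 on the opposite strand and had between 68 and 707 counts per library.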

How the results depend on the processing

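The 10 members passed in both line comparisons under all 22 alternatives, with edgeR, DESeq2 or limma-voom adjusted p of at most 0.0221 with vehicle and 0.0488 with dexamethasone. None passed for dexamethasone under any alternative, with adjusted p of at least 0.0972 in H9 and 0.244 in H1. For FOSB, the dexamethasone effect in H9 minus that in H1 kept its sign in all 21 alternatives (adjusted p 0.187 to 0.751). The dexamethasone changes that turned sign were near 0. In H9, JUNB (-0.00913) was at 0.0130 with RLE size factors, 0.0149 in DESeq2, 0.01335 with library sizes without mitochondrial and abundant genes, 0.0466 without a filter and 0.00689 with the contrast's groups alone. With the replicate block and without H9 vehicle culture 3, JUNB was at 0.00361, FOSL2 at 0.0250, NPAS4 at -0.0730, ARC at 0.0387 and NR4A3 at -0.0537. Leaving out 1 library at a time gave -0.162 to 0.0576 for FOSL2, -0.0376 to 0.0490 for JUNB, -0.0925 to 0.207 for NPAS4, -0.204 to 0.0893 for ARC and -0.0404 to 0.124 for NR4A3 in H9, and -0.111 to 0.0251 for JUN, -0.0704 to 0.133 for EGR1 and -0.0406 to 0.127 for NR4A1 in H1.

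The counts of all genes moved more. For H9 against H1 with vehicle, 8350 genes passed, 5284 with the groups alone and 6711 to 10608 with 1 library left out. With dexamethasone these were 7777, 11908 with the replicate block without H9 vehicle culture 3, and 6106 to 11697. For dexamethasone in H9, 12 passed, 166 in DESeq2 (84 higher and 82 lower), 24 without a filter, 62 with the block without that culture, 2 with H9 alone and 6 to 53 with 1 library left out. In H1, 9 passed, 32 in DESeq2, 5 with the replicate block, 141 with the block without H9 vehicle culture 3, 50 with H1 alone and 3 to 59 with 1 left out. For the mean, 18 passed, 116 in DESeq2, 30 without a filter, 184 with the block without that culture and 10 to 140 with 1 left out. The highest value of each of these 5 ranges came without H9 vehicle culture 3. The difference of the responses stayed at 0. The cause of these moves was not tested. The labels do not say that culture numbers pair samples, and not every pair's correlation was above 0.1 (-0.06 to 0.18). In H1 each vehicle culture correlated best with the dexamethasone culture of its own number (3 of 3) and in H9 1 of 3 did, a hint from the data and not the design. Between the lines, numbers matched for 3 of 3 dexamethasone cultures and 1 of 3 vehicle cultures. The matches therefore cannot tell a pairing of vehicle with dexamethasone from something else shared by number. The lowest member count, 68, limits FOSB most.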
